A study of Arabidopsis thaliana with 12 samples.

Results

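Nuclear genes for ribosomal proteins were followed in Arabidopsis thaliana seedlings whose gene for the transcript elongation factor TFIIS carries an insertion. Members were the rows of the deposited expression table with a nuclear gene identifier and a symbol beginning RPL or RPS followed by a number, or RPP0 to RPP3 followed by a letter. This rule found 267 of 32705 rows, and it uses no measured value. Of these, 222 encode proteins of the cytosolic ribosome, 31 proteins of the chloroplast ribosome and 6 proteins of the mitochondrial ribosome. These classes were assigned by hand, from the text of the RefSeq annotation of TAIR10.1 where given and otherwise from known protein names. The compartment of 4 rows could not be settled. The remaining 4 rows are no ribosomal protein genes at all: their symbols, such as RPS4 and RPS6, stand for resistance to Pseudomonas syringae and belong to immune receptors.

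All seedlings were of the Columbia ecotype, 10 days old and in the tfIIs-1 background (insertion line SALK_056755), so every group compared here carries the insertion in the native gene. How many independent transgenic lines were used is not stated in the labels. They carried a transgene, switched on by estradiol, for GFP-tagged TFIIS in a mutated form (GFP-TFIISmut) or for GFP-tagged TFIIS (GFP-TFIIS). The 4 groups were GFP-TFIISmut induced with 2 mM estradiol for 24 h, GFP-TFIISmut given ethanol (mock), GFP-TFIIS induced and GFP-TFIIS mock. Each group had 3 libraries of polyadenylated RNA from whole seedlings, but the deposited table holds 1 combined value per gene and group, called a pool here. No value therefore has an error, no difference could be tested against the spread between seedlings, and no order of the pools shows by itself an effect of the transgene.

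Which column of the table holds which pool was inferred from abbreviated headers, and every value rests on that reading. The values were read as FPKM, fragments scaled for transcript length and sequencing depth, and reads per library are unknown. TFIIS itself (AT2G38560) stood at 87.0 FPKM in GFP-TFIISmut induced and 17.6 FPKM in GFP-TFIISmut mock. It stood at 742 FPKM in GFP-TFIIS induced and 21.1 FPKM in GFP-TFIIS mock. Both induced pools were thus above their mock pools, the GFP-TFIIS pool by far more. Native and transgene fragments cannot be told apart in this row.

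A plant cell makes ribosomal proteins for 3 kinds of ribosome. Cytosolic ribosomes translate nuclear messages, and each of their proteins is usually encoded by a small family of near-identical genes (paralogs), which are transcribed most in growing tissue. Chloroplast and mitochondrial ribosomes are of bacterial descent, and part of their proteins come from single nuclear genes and are imported. TFIIS rescues RNA polymerase II that has slid back along its template, by stimulating cleavage of the nascent RNA. Promoters of plant ribosomal protein genes are known for a pair of short elements, the telo box and site II, the second of which is bound by TCP transcription factors.

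Stretches of 250 bases immediately upstream of the annotated gene start were read from TAIR10.1 to show these elements. The telo box was searched as AAACCCTAA and in the shorter form AAACCCTA, which every longer match contains, and site II as TGGGCC and TGGGCT, all on both strands. The 5 stretches below overlap no other annotated gene; matches are in capitals, in the direction of the gene. They belong to 2 RPL41 genes and RPL31C, whose values differed most between the mock pools or on induction of GFP-TFIISmut among genes with such a stretch, to RPL19A, among the most abundant members, and to the chloroplast gene RPS13, which had the lowest difference on induction of GFP-TFIISmut.
RPL41E, AT2G40205, chr2:16792623-16792872, minus strand: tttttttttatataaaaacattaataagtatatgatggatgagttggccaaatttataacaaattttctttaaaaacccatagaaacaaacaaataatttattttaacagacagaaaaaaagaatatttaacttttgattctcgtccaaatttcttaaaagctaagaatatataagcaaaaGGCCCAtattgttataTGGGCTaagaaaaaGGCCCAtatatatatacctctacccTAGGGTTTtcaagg
RPL41E, AT1G56045, chr1:20962320-20962569, plus strand: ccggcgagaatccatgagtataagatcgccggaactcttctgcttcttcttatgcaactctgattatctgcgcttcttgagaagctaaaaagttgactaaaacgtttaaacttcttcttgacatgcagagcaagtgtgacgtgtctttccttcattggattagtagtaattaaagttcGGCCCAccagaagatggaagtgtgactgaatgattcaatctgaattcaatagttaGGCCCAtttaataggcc
RPL31C, AT5G56710, chr5:22944994-22945243, minus strand: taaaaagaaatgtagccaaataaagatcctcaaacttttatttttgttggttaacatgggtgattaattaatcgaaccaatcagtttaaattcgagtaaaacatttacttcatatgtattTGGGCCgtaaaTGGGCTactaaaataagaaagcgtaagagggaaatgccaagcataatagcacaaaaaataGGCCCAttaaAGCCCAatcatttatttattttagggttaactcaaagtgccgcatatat
RPL19A, AT1G02780, chr1:609535-609784, minus strand: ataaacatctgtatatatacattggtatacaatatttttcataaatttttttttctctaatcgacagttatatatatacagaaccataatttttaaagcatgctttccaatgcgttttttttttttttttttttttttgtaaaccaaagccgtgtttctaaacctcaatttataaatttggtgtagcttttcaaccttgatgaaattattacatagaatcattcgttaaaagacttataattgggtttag
RPS13 (chloroplast), AT5G14320, chr5:4618982-4619231, minus strand: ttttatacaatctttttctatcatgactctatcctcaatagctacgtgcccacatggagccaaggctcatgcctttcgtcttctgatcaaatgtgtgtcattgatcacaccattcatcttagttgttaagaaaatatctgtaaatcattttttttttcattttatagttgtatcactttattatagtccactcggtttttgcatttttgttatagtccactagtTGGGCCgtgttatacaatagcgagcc

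The first of these holds 1 short telo box and 3 site II matches, and RPL31C holds 4 site II matches. RPL19A, with more than 1600 FPKM in every pool, has no match in this window. Over all members, site II in either form was found upstream of 154 of 222 cytosolic genes (69.4%), 12 of 31 chloroplast genes (38.7%) and 2 of 6 mitochondrial genes. It was found upstream of 5264 of 27443 protein-coding genes of the reference (19.2%). The short telo box was found upstream of 49 cytosolic genes (22.1%), 5 chloroplast genes (16.1%) and 4.49% of all protein-coding genes. A match is a description of letters, and its absence says nothing of a factor.

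The cytosolic ribosome took a larger part of the measured mRNA in the GFP-TFIISmut line, whether induced or not. Its 222 rows made up 19.9% of all FPKM in GFP-TFIISmut induced and 19.1% in GFP-TFIISmut mock, against 13.9% in GFP-TFIIS induced and 15.1% in GFP-TFIIS mock. The 5 rows of RPL41, which encodes the smallest ribosomal protein, alone made up 7.02%, 6.37%, 4.11% and 3.91% in that order of pools. Without RPL41 the shares were 12.9%, 12.7%, 9.75% and 11.2%. The chloroplast rows made up 1.39%, 1.91%, 1.61% and 2.02%, with the lowest share in GFP-TFIISmut induced. In GFP-TFIIS induced, a single row that is no member (AT2G01021) held 117382 FPKM or 11.4% of the sum, against 14286 FPKM in GFP-TFIIS mock. It held 36710 FPKM in GFP-TFIISmut induced and 22162 FPKM in GFP-TFIISmut mock, and in each pool its part lowers the share of every other gene.

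**Figure D1:**
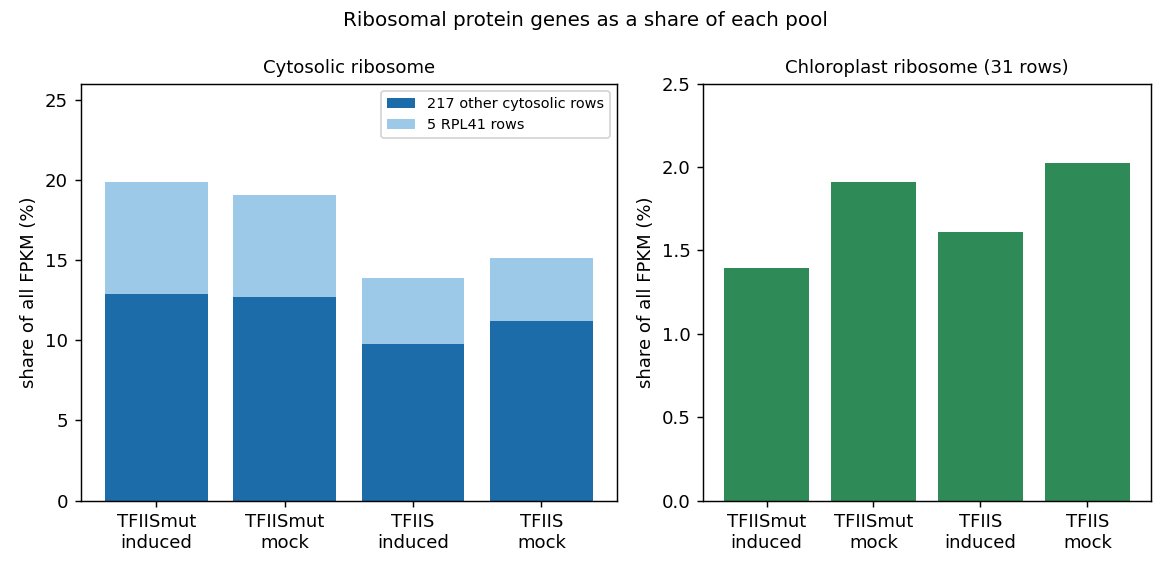
Share of all FPKM, in percent, taken by cytosolic ribosomal protein rows (left, RPL41 rows in light blue) and by chloroplast ribosomal protein rows (right) in the 4 pools, 1 bar per pool. The cytosolic bars reach 19.9% and 19.1% in the GFP-TFIISmut pools and 13.9% and 15.1% in the GFP-TFIIS pools, while the chloroplast bars are lowest, at 1.39% and 1.61%, in the induced pools.

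RPL41E (AT3G08520), with an annotated mRNA of 246 nucleotides, was the most abundant row of 3 pools and ranked 2 in GFP-TFIIS induced. Its level was 38181 FPKM in GFP-TFIISmut induced, 32831 FPKM in GFP-TFIISmut mock, 23318 FPKM in GFP-TFIIS induced and 19034 FPKM in GFP-TFIIS mock. The next most abundant member, RPL41E (AT2G40205), had 30817, 24688, 15914 and 13162 FPKM in the same order. Both were ordered alike, with the GFP-TFIISmut pools above the GFP-TFIIS pools and each induced pool above its mock pool. The 5 RPL41 genes share a symbol in the table and encode near-identical peptides, so fragments may have been split among them, and levels of such short mRNAs depend strongly on the length used for scaling. Below them came RPL29A, RPL19A and RPL39C, at mean levels of 2581, 2031 and 1799 FPKM. Cytosolic members filled 35 of the 100 most abundant rows in GFP-TFIISmut induced, 31 in GFP-TFIISmut mock, 23 in GFP-TFIIS induced and 24 in GFP-TFIIS mock.

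At the other end, 6 cytosolic members were listed at 0 in every pool and 3 more in some pools, and 17 stayed under 5 FPKM throughout. The lowest with any signal were RPS15E (AT5G43640), RPL8B (AT3G51190) and RPS15AC (AT2G39590), each under 0.21 FPKM in every pool. Of the chloroplast members, 1 (RPL12B) was listed at 0 in every pool. A 0 in this table may be a failed estimate, since genes for the photosynthesis proteins LHCB1.3 and RBCS1A are at 0 in both mock pools. Differences below are between values of log2(FPKM + 1). They are given for members with at least 5 FPKM in 1 of the compared pools and above 0 in both, which leaves 205 cytosolic, 30 chloroplast and 6 mitochondrial members in every comparison.

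Without estradiol, nearly all cytosolic members were higher in GFP-TFIISmut mock than in GFP-TFIIS mock. Of 205 members, 202 were above 0, where 52.3% of all 14113 rows compared were. The median difference was 0.25, or 1.19-fold, with quartiles at 0.19 and 0.32, while the median of all rows was 0.01; after quantile normalization it was 0.15 with 187 of 205 above 0. The shift was small for each gene: 3 members reached 1.5-fold higher (1.46%, where 1.14% of all rows did) and none 1.5-fold lower (2.39% of all rows). Other abundant rows, those averaging 200 FPKM or more, had a median of 0.07 with 64.5% above 0.

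The 3 were both most abundant RPL41E genes, with log2 differences of 0.91 (AT2G40205) and 0.79 (AT3G08520), and RPS27AA (AT1G23410), which encodes a ribosomal protein fused to ubiquitin. RPS27AA had 54.9 FPKM in GFP-TFIISmut mock and 34.2 FPKM in GFP-TFIIS mock, a log2 difference of 0.67. Just short of 1.5-fold lay RPL31C, with 1458 FPKM in GFP-TFIISmut mock and 1007 FPKM in GFP-TFIIS mock. The lowest cytosolic difference was that of RPL11A (AT2G42740), at -0.09, whose row is merged with a neighbouring gene. Large-subunit members had a median of 0.28 (112 members), small-subunit members 0.22 (82 members) and P-stalk members 0.26 (11 members). Chloroplast members showed no common shift here, with 18 of 30 above 0 and a median of 0.02 that became -0.10 after quantile normalization and -0.03 on a common sum without organelle rows and the 20 most abundant rows.

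**Figure D2:**
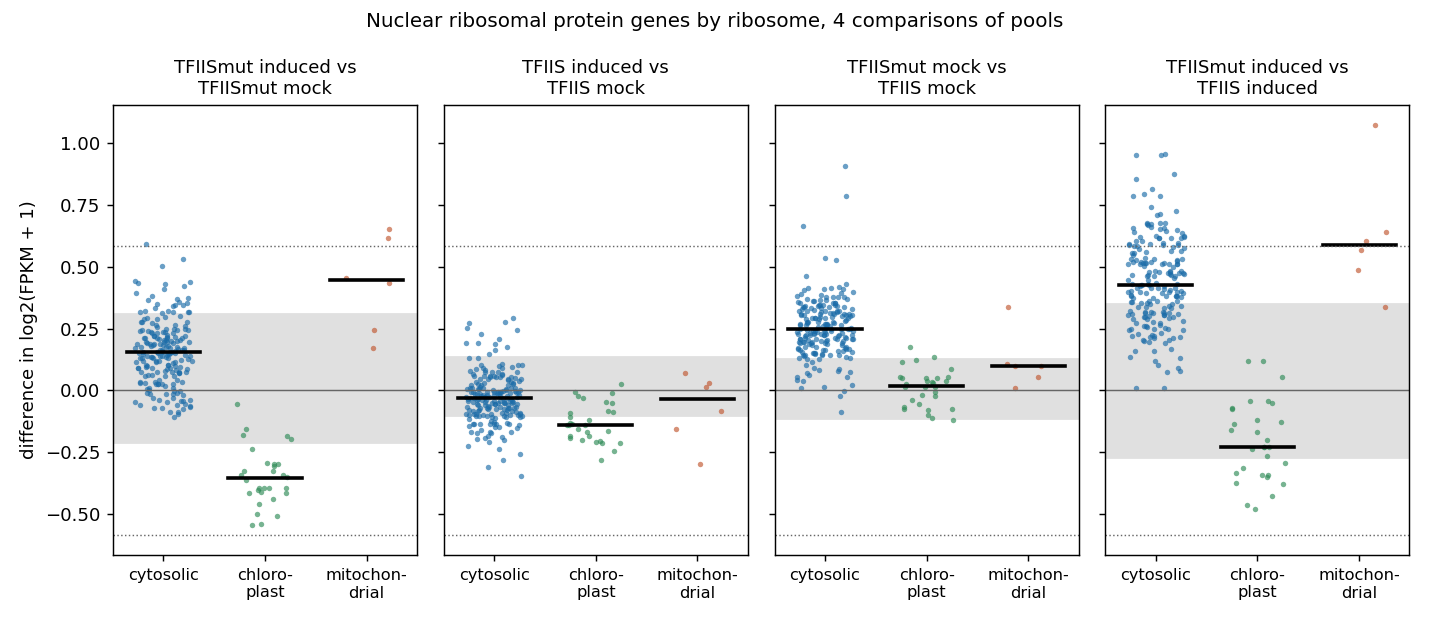
Difference in log2(FPKM + 1) of each eligible member, as points, for cytosolic, chloroplast and mitochondrial ribosomal protein genes in 4 comparisons; the black bar is the class median, the grey band spans the quartiles of all rows compared, and dotted lines mark 1.5-fold. The cytosolic cloud lies above 0 between the mock pools (median 0.25) and between the induced pools (median 0.43), and the chloroplast cloud lies below 0 on induction of GFP-TFIISmut (median -0.36).

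On induction of GFP-TFIISmut, cytosolic members mostly lay slightly above their mock level and the 30 chloroplast members compared lay below it. The cytosolic median was 0.15 (1.11-fold), and 177 of 205 members were above 0, where 55.2% of all 14456 rows were. The median became 0.06 after quantile normalization, with 137 of 205 above 0 and 45.8% of all rows above 0, and 0.06 on a common sum without organelle rows and the 20 most abundant rows. The largest cytosolic difference was that of RPL39B (AT3G02190), a small protein at the exit tunnel of the large subunit. It had 346 FPKM in GFP-TFIISmut induced and 229 FPKM in GFP-TFIISmut mock, a log2 difference of 0.59, and 179 FPKM in GFP-TFIIS induced and 184 FPKM in GFP-TFIIS mock. It was the only cytosolic member past 1.5-fold (0.488%), where 11.5% of all rows were 1.5-fold or more higher and 7.31% lower. Just short of it came RPL36B, with 1026 FPKM in GFP-TFIISmut induced and 710 FPKM in GFP-TFIISmut mock. None of the 246 members compared was 2-fold or more higher or lower, where 7.19% of all rows were.

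Shorter mRNAs lay higher in the induced GFP-TFIISmut pool throughout the table, and most cytosolic members are short. Among rows with mRNAs of 600 to under 900 nucleotides the median difference was 0.16 for 78 cytosolic members and 0.23 for 998 other nuclear rows. At 900 to under 1200 nucleotides both medians were 0.15, and at 1200 nucleotides or more they were 0.12 for 34 members and 0.02 for 10390 other rows. Under 600 nucleotides they were 0.30 for 11 members and 0.24 for 349 other rows. Below 1200 nucleotides the cytosolic members thus lay close to other rows or under them, save for this smallest class. Between the mock pools the same classes had cytosolic medians of 0.25, 0.24 and 0.25, against 0.02, 0.00 and 0.01 for other rows. The part of mRNA length in these differences was not tested.

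**Figure D3:**
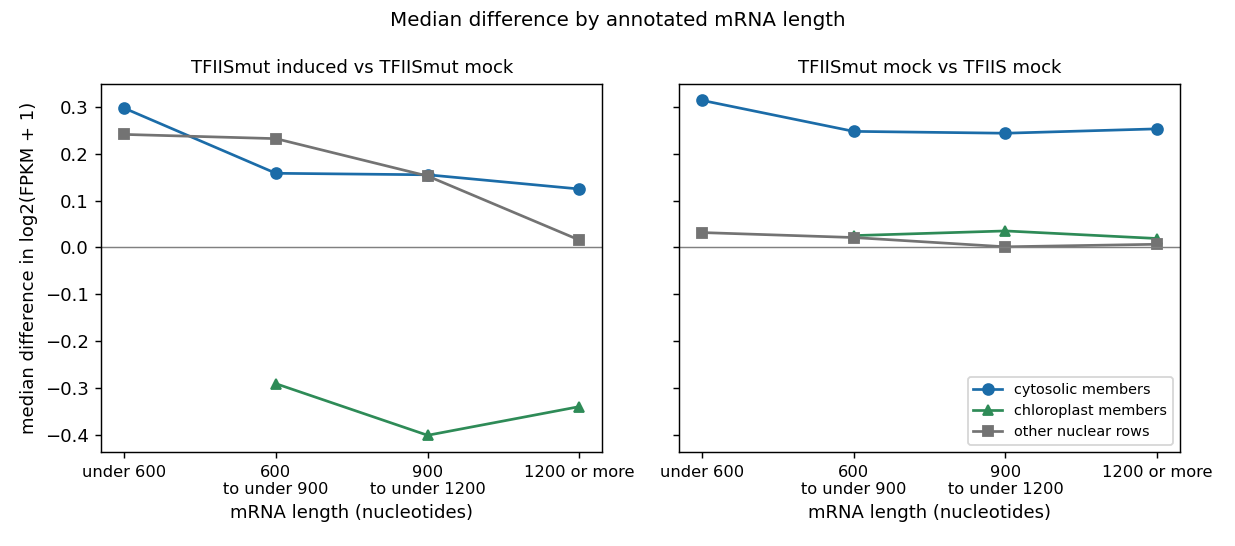
Median difference in log2(FPKM + 1), on the vertical axis, by class of annotated mRNA length in nucleotides, for cytosolic members, chloroplast members and all other nuclear rows with 1 gene, in GFP-TFIISmut induced against mock (left) and GFP-TFIISmut mock against GFP-TFIIS mock (right). On the left, cytosolic members and other rows meet at 0.15 in the class of 900 to under 1200 nucleotides; on the right, cytosolic members stay near 0.25 in that class and other rows near 0.

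The chloroplast members shared a sign. All 30 compared were lower in GFP-TFIISmut induced than in GFP-TFIISmut mock, where 44.8% of all rows were, with a median of -0.36 (0.781-fold) and a range from -0.55 to -0.05. None reached 1.5-fold lower. RPS13 (AT5G14320), a small-subunit protein, had 447 FPKM in GFP-TFIISmut induced and 653 FPKM in GFP-TFIISmut mock, against 568 FPKM in GFP-TFIIS induced and 577 FPKM in GFP-TFIIS mock. RPL1 (AT3G63490), of the large subunit, had 275 FPKM in GFP-TFIISmut induced and 401 FPKM in GFP-TFIISmut mock. RPL11 (AT1G32990), whose loss is known to give pale plants, had 254 and 359 FPKM in these pools. In each of these 3 genes the induced GFP-TFIISmut pool was the lowest of the 4, as it was for 27 of 30 chloroplast members (90.0%) and for 36.1% of 14835 rows.

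Large and small chloroplast subunits did not part on induction of GFP-TFIISmut, with medians of -0.36 (21 members) and -0.35 (9 members). By mRNA length, the chloroplast medians were -0.29 (6 members), -0.40 (12) and -0.34 (8) at 600 to under 900, 900 to under 1200 and 1200 or more nucleotides, each below the median of other nuclear rows in its class.

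**Figure D4:**
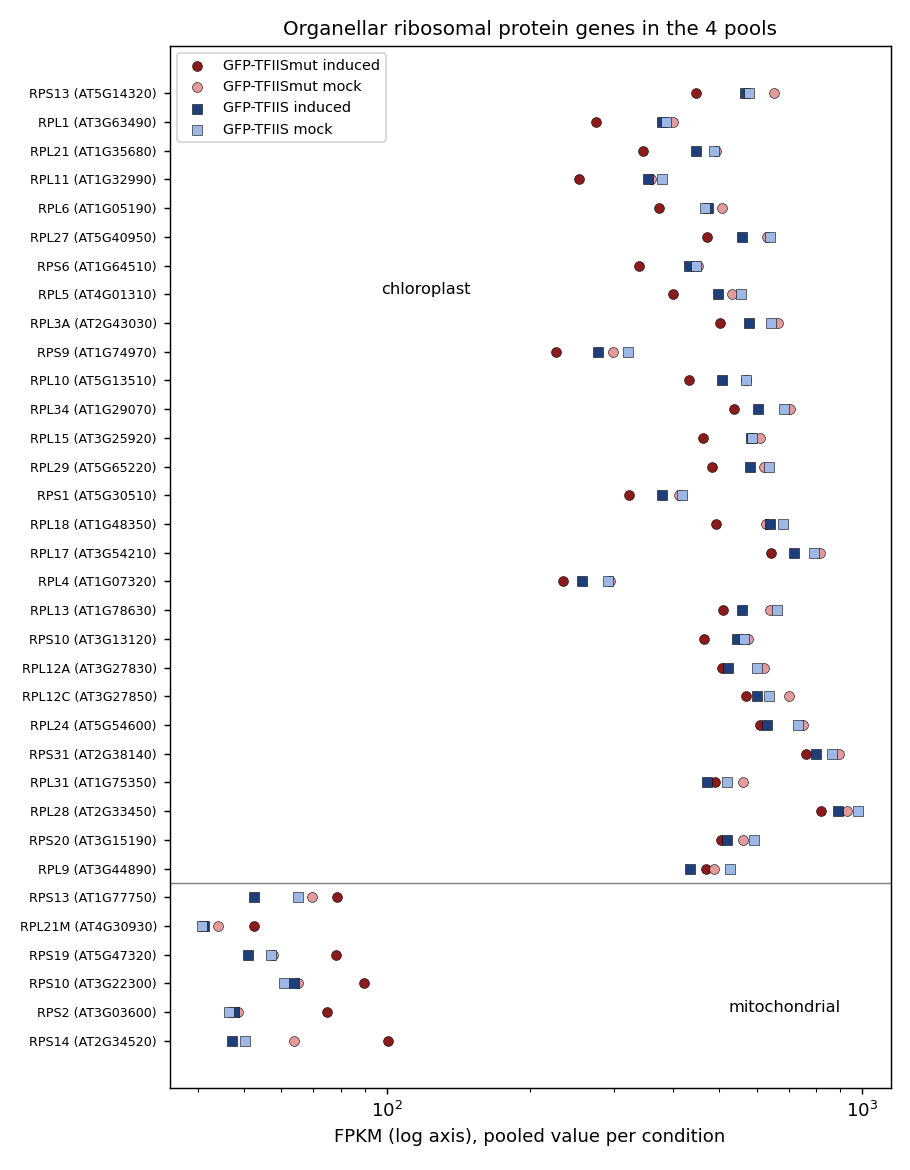
FPKM of 28 chloroplast and 6 mitochondrial ribosomal protein genes listed above 0 (log axis), 1 point per pool, sorted within each class by the difference on induction of GFP-TFIISmut. The dark red point, GFP-TFIISmut induced, is the lowest in 26 of these chloroplast genes and the highest in all 6 mitochondrial genes.

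On induction of GFP-TFIISmut all 6 mitochondrial members lay the other way, above 0, where 55.2% of all rows were. Their median was 0.45, although they are also parts of an organellar ribosome. RPS14 (AT2G34520) had 101 FPKM in GFP-TFIISmut induced and 63.7 FPKM in GFP-TFIISmut mock, against 47.3 FPKM in GFP-TFIIS induced and 50.2 FPKM in GFP-TFIIS mock. RPS2 (AT3G03600) had 75.0 FPKM in GFP-TFIISmut induced and 48.5 FPKM in GFP-TFIISmut mock. These were 2 of the 4 members past 1.5-fold in this comparison, beside RPL39B and the immune receptor RPS6 (AT5G46470, a merged row), which had 9.75 FPKM in GFP-TFIISmut induced and 6.08 FPKM in GFP-TFIISmut mock. Those 4 were 1.63% of the 246 members compared, where 11.5% of all rows were 1.5-fold or more higher. The other mitochondrial members, RPS10, RPS13, RPS19 and RPL21M, differed by 0.17 to 0.46. Results for the mitochondrial class were not rerun with other scalings.

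On induction of GFP-TFIIS the cytosolic members hardly left their mock level. Their median was -0.03 (0.978-fold), with 70 of 205 above 0, where 54.4% of all 14203 rows were. Of other rows averaging 200 FPKM or more, 39.0% were above 0, with a median of -0.05. None of the 247 members compared was 1.5-fold or more higher (1.90% of all rows) or lower (2.25%). The P-stalk genes, whose proteins form the flexible arm that recruits elongation factors, lay below 0 in 11 of 11 members, with a median of -0.14. RPP3A (AT4G25890), specific to plants, had the largest of these differences at -0.35, with 63.2 FPKM in GFP-TFIIS induced and 80.5 FPKM in GFP-TFIIS mock. Chloroplast members were below 0 in 29 of 30 cases, where 45.6% of all rows were, with a median of -0.14. Their medians on induction thus had the same sign in both lines; the difference between the lines could not be tested.

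Between the induced pools all 205 cytosolic members were higher in GFP-TFIISmut than in GFP-TFIIS, where 52.4% of all 14619 rows were. The median was 0.43 (1.34-fold), and 45 members (22.0%) were 1.5-fold or more higher, where 13.0% of all rows were. Of other rows averaging 200 FPKM or more, 19.8% were 1.5-fold or more higher, a share near that of the members. Those abundant rows had a median of 0.14, with 56.0% above 0. Counting every class, 48 members passed this threshold upward and none downward, as 9.22% of all rows did. That count was 21 after quantile normalization and 12 on a common sum without organelle rows and the 20 most abundant rows, with cytosolic medians of 0.23 and 0.26. The second of these scalings shifts the median of all rows to -0.13. The just-passing member was RPS27A (AT2G45710), with 141 FPKM in GFP-TFIISmut induced and 93.7 FPKM in GFP-TFIIS induced, and the mitochondrial gene RPS14 alone was past 2-fold (as were 5.34% of all rows), at a log2 difference of 1.07. Chloroplast members were lower in 27 of 30 cases, where 47.6% of all rows were, with a median of -0.23. The 4 comparisons share pools in pairs, so they are not independent of each other.

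Seen over the 4 pools together, both GFP-TFIISmut pools were above both GFP-TFIIS pools in 199 of 205 cytosolic members (97.1%), in 6 of 6 mitochondrial members and in 0 of 30 chloroplast members, where 22.0% of all 14835 rows were. GFP-TFIISmut induced was the highest pool in 177 cytosolic members (86.3%), where it was in 43.6% of all rows. That count was 138 of 205 after quantile normalization and 137 of 202 on a common sum without organelle rows and the 20 most abundant rows, where 36.6% and 31.5% of all rows were highest there.

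The P-stalk genes differed among themselves by their abundance and by their differences. RPP0B (AT3G09200), the base of the stalk, had 1218 FPKM in GFP-TFIISmut induced, 1145 in GFP-TFIISmut mock, 888 in GFP-TFIIS induced and 906 in GFP-TFIIS mock. Its weaker paralogs RPP0A and RPP0C had 27.5 and 64.3 FPKM in GFP-TFIISmut induced, and neither differed by more than 0.05 between the mock pools. Of the RPP1 and RPP2 proteins, which pair on the stalk, RPP1A, RPP1B, RPP1C, RPP2A and RPP2B lay between 384 and 893 FPKM in every pool. RPP2D (AT3G44590) had the largest stalk difference between the induced pools, at 0.87, with 98.3 FPKM in GFP-TFIISmut induced and 53.2 FPKM in GFP-TFIIS induced. RPP2C and RPP2E stayed under 2.6 FPKM and were not compared.

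Of 24 cytosolic symbols listed for their known roles in leaf shape, embryo development or signalling, 22 were found, on 24 rows. Rows were matched by symbol alone, and RPL5A and RPL9C were not found under these symbols. RPS18A stands on 3 rows, and a role known for 1 gene of a shared symbol need not hold for the others. All 24 rows were higher in GFP-TFIISmut mock than in GFP-TFIIS mock (median 0.24, range 0.01 to 0.43), and 20 were above 0 on induction of GFP-TFIISmut (median 0.12). In the whole cytosolic class these shares were 98.5% and 86.3%, and over all rows 52.3% and 55.2%, so these counts are near those of the class. RPL27AC (AT1G70600), dosage-sensitive in shoot development, had 971 FPKM in GFP-TFIISmut mock and 720 FPKM in GFP-TFIIS mock. RPS6A (AT4G31700) and RPS6B (AT5G10360), whose product is phosphorylated downstream of the TOR kinase, differed by 0.22 and 0.33 between the mock pools. RPL24B (AT3G53020), known as SHORT VALVE1 and needed for reinitiation of translation, had 696 FPKM in GFP-TFIISmut induced and 461 FPKM in GFP-TFIIS induced. RPL9D (AT4G10450) differed least between the mock pools, with 126 FPKM in GFP-TFIISmut mock and 125 FPKM in GFP-TFIIS mock. Of 11 chloroplast symbols in that list 9 were found, and all 9 were below 0 on induction in both lines, as were 30 and 29 of the 30 chloroplast members and 44.8% and 45.6% of all rows in GFP-TFIISmut and GFP-TFIIS.

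Within families, the listed shares of paralogs differed little between pools. How fragments that match several near-identical paralogs were divided is unknown. Both the shares and a change of the strongest paralog may therefore rest in part on that division. The cytosolic members form 78 protein families, of which 77 have more than 1 paralog in the table. In all 78 families the summed FPKM was higher in GFP-TFIISmut mock than in GFP-TFIIS mock, in 72 it was higher in GFP-TFIISmut induced than in its mock pool, and in 27 it was higher in GFP-TFIIS induced than in its mock pool. The share of a paralog within its family moved by no more than 6.90 percentage points across pools, with a median of 2.81 over families of the largest such move. That largest value was in RPL32, where RPL32A made up 75.8% of the family in GFP-TFIISmut induced and 68.9% in GFP-TFIIS induced, and where RPL32B shares its row with a neighbour. The strongest paralog held more than 80% in 12 families and changed identity between pools in 6, such as RPS18, whose 3 genes took 32.5%, 37.6% and 29.9% in GFP-TFIISmut induced and 30.6%, 33.4% and 35.9% in GFP-TFIIS induced (AT1G22780, AT1G34030 and AT4G09800).

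Genes that build or use ribosomes, taken from lists chosen with earlier results of these data known, had the signs of the cytosolic members. Of 35 ribosome biogenesis genes, 33 of the 34 compared were higher in GFP-TFIISmut mock than in GFP-TFIIS mock (median 0.17), where 52.3% of all rows were. On induction of GFP-TFIISmut 34 of 35 were above 0 and 1 was 1.5-fold or more higher (median 0.16), where 55.2% and 11.5% of all rows were. NUC2 (AT3G18610), the lesser nucleolin, had 10.4 FPKM in GFP-TFIISmut induced and 4.58 FPKM in GFP-TFIISmut mock. Against the same shares of all rows, 25 of 28 cytosolic translation factors were higher in GFP-TFIISmut mock than in GFP-TFIIS mock (median 0.23), and 22 were above 0 on induction of GFP-TFIISmut, with EIF6A (AT3G55620), a ribosome assembly factor, at 233 FPKM in GFP-TFIISmut induced and 123 FPKM in GFP-TFIISmut mock.

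Of 10 genes that signal growth to the ribosome, 5 were above 0 on induction of GFP-TFIISmut, where 55.2% of all rows were. Their median was 0.05, and 2 of them were 1.5-fold or more higher, where 11.5% of all rows were. TCP20 (AT3G27010), a factor that binds site II, had 19.4 FPKM in GFP-TFIISmut induced, 6.44 in GFP-TFIISmut mock, 6.11 in GFP-TFIIS induced and 5.97 in GFP-TFIIS mock. S6K2 (AT3G08720), a kinase of the TOR pathway, had 16.0 FPKM in GFP-TFIISmut induced and 6.52 FPKM in GFP-TFIISmut mock. TCP20 and S6K2 were the 2 past 1.5-fold. The 5 genes below 0 were TOR (-0.25), RAPTOR1B (-0.20), S6K1 (-0.13), GCN2 (-0.25) and YAK1 (-0.37). Cytosolic members with a site II match had a median of 0.15 on induction of GFP-TFIISmut (142 members) and those without one 0.16 (63 members); a part of TCP20 in the members' levels was not tested. A list of 8 genes for chloroplast translation held PSRP1 and cpSRP54 beside translation factors, and 7 of the 8 could be compared. All 7 were lower in GFP-TFIISmut induced than in GFP-TFIISmut mock (median -0.66), where 44.8% of all rows were. Of the 7, 5 were 1.5-fold or more lower, PSRP1 and cpSRP54 included, where 7.31% of all rows were. FUG1 (AT1G17220), the initiation factor, had 50.3 FPKM in GFP-TFIISmut induced and 79.3 FPKM in GFP-TFIISmut mock.

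In whole seedlings, fewer cells of a type and less RNA per cell cannot be told apart, and some tissue markers also differed between pools. Of 13 markers of dividing tissue, 9 could be compared: 8 were higher in GFP-TFIISmut mock than in GFP-TFIIS mock (median 0.09), and 9 were higher in GFP-TFIISmut induced than in GFP-TFIIS induced (median 0.31), where 52.3% and 52.4% of all rows were. On induction 5 of the 9 were above 0 in GFP-TFIISmut (median 0.10) and 0 of 9 in GFP-TFIIS (median -0.14), where 55.2% and 54.4% of all rows were. Their summed level was 249 FPKM in GFP-TFIISmut induced, 236 in GFP-TFIISmut mock, 192 in GFP-TFIIS induced and 213 in GFP-TFIIS mock, with the stem-cell gene WUS near 0. Of 6 leaf mesophyll markers, 4 could be compared on induction of GFP-TFIISmut, and all 4 were lower by 1.5-fold or more (median -1.08; 7.31% of all rows were). On induction of GFP-TFIIS the same 4 were also below 0 (median -0.29), none by 1.5-fold. The activase gene RCA, for one, had 1126 FPKM in GFP-TFIISmut induced and 2188 FPKM in GFP-TFIISmut mock. The other mesophyll markers, LHCB1.3 and RBCS1A, were at 0 in both mock pools, so that the summed levels of 19421 FPKM in GFP-TFIISmut induced and 6722 FPKM in GFP-TFIISmut mock, and of 26141 FPKM in GFP-TFIIS induced and 6403 FPKM in GFP-TFIIS mock, cannot be compared. The 8 root markers summed to 51.4, 66.7, 68.2 and 67.5 FPKM, and the 4 seed storage markers to 4.64, 0.254, 0.205 and 0.184 FPKM, in GFP-TFIISmut induced, GFP-TFIISmut mock, GFP-TFIIS induced and GFP-TFIIS mock. Of the root markers, 4 could be compared on induction of GFP-TFIISmut, with 1 above 0 and 3 below, where 55.2% of all rows were above 0. The part of tissue make-up in the ribosomal protein differences was not tested.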

How the data were processed

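Polyadenylated RNA of 12 libraries, 3 in each of 4 groups, was sequenced from stranded TruSeq libraries (per the labels' protocols). The deposited table gives 1 value per gene and group, read here as FPKM computed by the authors; the unit, and which column is which group, were inferred from the layout, the values and the abbreviated headers. The submitters' processing notes list Bowtie2 2.3.5. Not given in the sources used here are the quantification, the genome build and the way of pooling. Without the depth of each library, intervals and detection floors could not be had.

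The design written at the start hoped for values per library and a test; with pooled values differences were described by size instead. Of 32705 rows, 38 with repeated identifiers were left out. A difference is that of log2(FPKM + 1), which understates changes of low genes, for rows with at least 5 FPKM in 1 pool and above 0 in both. Called rows differ by 1.5-fold or 2-fold on that scale, set beside the share of all rows. All 267 members matched TAIR10.1 by gene identifier, and 16 share a row with a neighbour. Ribosome classes were assigned by hand, from the product or description text of the RefSeq annotation where given and otherwise from known protein names. Named members are the 6 largest and 6 smallest differences per comparison, those next to the 1.5-fold threshold, the 5 highest and lowest levels per class, the P-stalk genes, members with known developmental roles, and up to 4 genes per other list; fewer are named than the rule allows. Members and lists were chosen with earlier results of these data known. Calculations ran in Python 3.11.15 with pandas 2.3.3 and numpy 2.4.6, and were checked on simulated data. Alternatives were another pseudocount, other filters, 3 other scalings, rows with 1 gene only and the other mock pool as control. Values of some single members are not reported here.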

Additional observations from a re-analysis of the deposited data

Results flagged for a closer look

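The cytosolic members are set out for a closer look because their median difference on induction had opposite signs in the 2 lines. It was 0.15 in the GFP-TFIISmut line and -0.032 in the GFP-TFIIS line, on the log2(FPKM + 1) scale. On a common sum without organelle rows and the 20 most abundant rows, the GFP-TFIIS median was -0.012. Opposite signs are not particular to these members: other rows averaging 200 FPKM or more had medians of 0.058 and -0.052 in the same order of lines. The difference between the lines was not tested, since each line has 1 pooled value per treatment.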

How the results depend on the processing

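The cytosolic medians kept their sign in all 4 comparisons under every alternative run, as did the chloroplast medians, except between the mock pools, where the chloroplast median was -0.10 after quantile normalization and -0.032 on a common sum without organelle rows and the 20 most abundant rows. Between the induced pools these scalings gave cytosolic medians of 0.23 and 0.26, chloroplast medians of -0.40 and -0.39, and 21 and 12 members past 1.5-fold. Between the mock pools each left 1 member past 1.5-fold. The common sum leaves out the 2 most abundant RPL41E genes, which were 2 of the 3 members past 1.5-fold there, so its lower count partly follows from their removal. On induction of GFP-TFIIS quantile normalization gave 1, as did no filter on low values. With the mock pool of the other line as control, the cytosolic median on induction was 0.40 for GFP-TFIISmut, with 29 members past 1.5-fold, and -0.29 for GFP-TFIIS, with 2. The cause was not tested. Counts of members above or below 0, or ordered over the 4 pools, were rerun after seeing the data and stayed within 1.5 times in 40 of 40 cases. That limit is wide: on induction of GFP-TFIISmut, cytosolic members above 0 fell from 177 to 137 of 205 after quantile normalization. The lowest count of cytosolic members with both GFP-TFIISmut pools on top was 161, after the same scaling. No paired analysis was possible because the table holds 1 value per group; leaving out single libraries was not run for the same reason. Depth is unknown, so no limit of detection can be given.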

Other observations

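Of the 4 members whose compartment was not settled, 3 had their highest level in GFP-TFIISmut induced, where 43.6% of all rows did. They were RPL3B (AT3G17465), RPS15AB (AT2G19720) and RPS15AE (AT4G29430). The remaining member, RPS7 (AT2G07599, a merged row), stayed under 5 FPKM in every pool and was highest in GFP-TFIIS induced, at 0.77 FPKM. RPL3B had 52.2 FPKM there, 40.2 in GFP-TFIISmut mock, 38.2 in GFP-TFIIS induced and 36.9 in GFP-TFIIS mock. RPS4 (AT5G45250), an immune receptor, had 5.40 FPKM in GFP-TFIIS induced and 3.90 FPKM in GFP-TFIIS mock.

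The short telo box was found upstream of 9 of the 17 cytosolic genes that stayed under 5 FPKM in every pool (52.9%) and upstream of 40 of the 205 others (19.5%), whereas site II was found upstream of 70.6% and 69.3% of these genes. The 17 are not independent cases. They include AT1G58684, AT1G58983 and AT1G59359, which share the symbol RPS2B and are listed at 0 in every pool, and a 0 may be a failed estimate. Among the 205 the median difference between the mock pools was 0.27 with a short telo box (40 members) and 0.24 without one (165 members).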
